A study of Mus musculus with 2 samples.

Results

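Nuclear respiratory factor 1 (NRF1) binds DNA as a dimer, with each subunit contacting one arm of a palindromic, GC-rich site. It is known for driving nuclear genes for mitochondrial proteins, and also genes for translation, RNA processing and cell division. Most of its known sites lie close to the transcription start site (TSS). The peaks described here were chosen to have their summit downstream of the 5′ end of the gene. It lay most often in the first intron or the 5′ UTR.

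The members are the NRF1 peaks on mm10 whose summit, the position of highest signal, lay 200 to 1000 bp downstream of the nearest protein-coding TSS, in the direction of transcription, and whose signal was 30 to 400. The signal is the strength value that the authors' peak caller gave each peak. No source used here gives its scaling, so it has no unit. Pooled signals were compared only within the pooled list, and replicate values are each on their own list's scale, so a difference between replicates may lie in that scale. Of 17256 peaks in the optimal set on chromosomes 1 to 19, 970 met the rule, which is 5.62% (Wilson 95% interval 5.29 to 5.98%). Each summit was counted as a peak, also where 2 summits shared 1 called region. The members belonged to 950 genes, of which 931 had 1 such peak, 18 had 2 and 1 had 3. That is 4.67% of the 20364 protein-coding genes whose start and strand were known. The members were chosen by their position and their signal, so both are given as a description only.

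The data were 2 chromatin immunoprecipitation sequencing libraries made with an NRF1 antibody from CH12.LX, a B-cell lymphoma line from a female mouse of strain B10.H-2aH-4bp/Wts. The labels call the libraries biological replicates 1 and 2 of 1 group, and give age as unknown and no treatment. Both come from 1 immortalized line of 1 donor, so their spread does not include differences between animals. The optimal set was selected from both replicates pooled, by how well peak ranks recurred between replicates. The design holds no treated or mutant group, so the downstream peaks were set against 2 other classes of promoter peak in the same signal range. These were 413 peaks (407 genes) 200 to 1000 bp upstream of a TSS, and 2830 peaks less than 200 bp from one, called core peaks here. The read totals were not analysed here, and the depth behind each peak is unknown.

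The 8 strongest downstream peaks with the exact NRF1 consensus, and the 3 strongest with a site that is not exact (Thnsl1, Mepce and Psd), are given here with the DNA under them, because the site is the feature by which the class could be compared with other promoter peaks. The site searched was the palindrome GCGCATGCGC with up to 1 mismatch, within 50 bp of the summit, which reads the same on both strands. Capitals mark it. The genome sequence at hand was mm9 (NCBIM37), so each sequence comes from a peak of the authors' mm9 set at the same distance from the same gene start. Sequences run 5′ to 3′ on the strand of the gene.
P4hb: gcgcggcgggGCGCATGCGCacggcggctg
Cep85: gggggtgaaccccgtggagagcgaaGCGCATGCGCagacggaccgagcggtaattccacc
Ing1: gggtggcgggGCGCATGCGCgctgcgcgcg
Tubgcp3: agccgggagaGCGCACGCGCgtctcgcgcg
Gatad2a: gccccggcgcGCGCACGCGCaccctcgctg
Ppp2r3c: aacctgtggcGCGCACGCGCtaaatgccca
Trim28: ggtgcccaacGCGCGTGCGCggcgtcgtcg
Eif4b: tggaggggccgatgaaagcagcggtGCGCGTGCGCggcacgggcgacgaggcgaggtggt
Thnsl1: cgcgcagtcaGCGCAGGCGCagaagcagca
Mepce: gtggcggagcGCGCATGCGTgggtcctggg
Psd: tcgcgcctctGCGCTTGCGCattacgacaa

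The sites in P4hb (chr11:120434263-120434292), Cep85 (chr4:133742688-133742747) and Ing1 (chr8:11556417-11556446) were perfect palindromes, with 0 mismatches. Positions in the palindrome are counted from 1 at its 5′ end on the gene strand. Tubgcp3 (chr8:12672151-12672180), Gatad2a (chr8:72520027-72520056) and Ppp2r3c (chr12:56403968-56403997) carried T6C. Trim28 (chr7:13609691-13609720) and Eif4b (chr15:101904858-101904917) carried A5G, the same change read from the other strand. The exact consensus allows only these changes, in 1 of the 2 central bases, so their place in these 8 genes was fixed by the choice. Of the sites that are not exact, Thnsl1 (chr2:21127346-21127375) carried T6G and Psd (chr19:46401628-46401657) A5T in the central pair, and Mepce (chr5:138227596-138227625) carried C10T at the end of an arm.

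P4hb encodes protein disulfide isomerase of the endoplasmic reticulum, and its downstream peak had a signal of 173 in replicate 1 and 211 in replicate 2. Its summit lay 305 bp inside the gene, and the site was 285 bp from the start, in the 5′ UTR. Tubgcp3, a subunit of the γ-tubulin complex that nucleates microtubules, had 219 in replicate 1 and 178 in replicate 2, with the summit 700 bp inside the gene. Trim28, the corepressor recruited by zinc finger proteins, had 192 and 199 in replicates 1 and 2, with its summit at 209 bp. These peaks were chosen for a high pooled signal, so high values in the replicates follow largely from the choice. Neither replicate was always the higher.

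Ing1, which encodes a reader of histone methylation, had 209 in replicate 1 and 158 in replicate 2 at 675 bp, so the replicates were furthest apart here among the 8 genes (mean 183 ± 36.2, SD, n = 2). Gatad2a, a subunit of the NuRD repressor complex, had 211 in replicate 1 and 177 in replicate 2. Ppp2r3c, a regulatory subunit of protein phosphatase 2A, had 188 in replicate 1 and 179 in replicate 2. In Cep85, which encodes a centrosomal protein, and Eif4b, a cofactor of translation initiation, the site was in the first intron. Cep85 had 180 in replicate 1 and 183 in replicate 2, and Eif4b had 192 in replicate 1 and 174 in replicate 2.

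The 10 downstream peaks of highest signal, which lie just under the upper limit of 400 by construction, were in Thnsl1, Haus4, Slc66a2, Gjd3, Mepce, Srcap, Tubgcp3, Psd, Pex16 and Kmt2e. Thnsl1 encodes a threonine synthase-like protein, and its peak had a signal of 211 in replicate 1 and 191 in replicate 2. Haus4 is a subunit of the augmin complex of the spindle, with 219 in replicate 1 and 179 in replicate 2 at 981 bp inside the gene. Mepce, the capping enzyme of 7SK RNA, had 205 in replicate 1 and 188 in replicate 2, and a core peak of 303 on the pooled scale. Pex16, needed to form peroxisomal membranes, had 207 in replicate 1 and 187 in replicate 2. Psd, an exchange factor for ARF6, had 199 in replicate 1 and 197 in replicate 2. Kmt2e, a member of the SET domain protein family, had 192 in replicate 1 and 203 in replicate 2 at 881 bp. Of these 10 genes, Mepce and Kmt2e also had a peak at the core promoter, and the Kmt2e core peak was at only 35.5.

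Several strong downstream peaks had no site by this definition. Haus4 (chr14:55172813-55172873), Srcap (chr7:134655894-134655954), Chrac1 (chr15:72921248-72921308) and Zfp383 (chr7:30693784-30693844) are shown because they were the 4 strongest without a site whose 61 bases around the summit touched no annotated exon and lay over 200 bp from any other annotated start. Capitals mark 2 shorter NRF1-like words on either strand, the half-site TGCGCA and the word GCCTGCGC, which overlap in Haus4.
Haus4: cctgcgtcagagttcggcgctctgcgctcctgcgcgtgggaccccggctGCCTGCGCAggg
Srcap: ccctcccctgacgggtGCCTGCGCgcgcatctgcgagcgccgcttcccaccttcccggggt
Chrac1: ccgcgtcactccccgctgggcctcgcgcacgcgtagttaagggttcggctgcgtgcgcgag
Zfp383: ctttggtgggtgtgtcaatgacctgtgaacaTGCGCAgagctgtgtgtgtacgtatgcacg
Srcap, the ATPase that exchanges H2A.Z into nucleosomes, held GCCTGCGC, and Zfp383 held the half-site. Chrac1, a histone-fold subunit of a chromatin remodelling complex, held neither word in these 61 bases. A match is a description of letters, and the absence of one says only that these letters are not in this window.

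Downstream peaks were more numerous than upstream peaks of the same distance and signal, 970 against 413. Without the signal limits, 1941 optimal peaks lay 200 to 1000 bp downstream and 861 the same distance upstream. Of the 1941, 234 were above 400 and 737 were below 30. The downstream members thinned with distance. There were 257 at 200 to 299 bp, 171 at 300 to 399 bp, 150 at 400 to 499 bp, 112 at 500 to 599 bp, 169 at 600 to 799 bp and 111 at 800 to 1000 bp, with a median of 435 bp. They were found on all 19 chromosomes, from 23 on chromosome 18 to 113 on chromosome 11, which also held the most optimal peaks (2197).

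**Figure D1:**
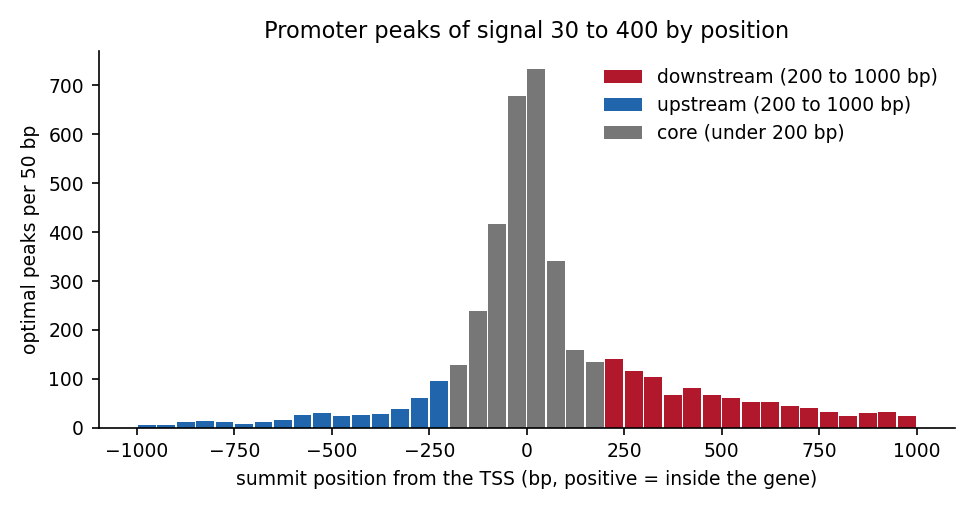
Number of optimal peaks of signal 30 to 400 per 50 bp of summit position from the nearest protein-coding TSS, with positive positions inside the gene. The downstream side (red, 970 peaks) falls off more slowly than the upstream side (blue, 413 peaks), around 2830 core peaks (grey).

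The count depends on which start is called the gene's start. Each gene was given 1 start, the 5′ end of its RefSeq gene. When every RefSeq start of a gene was used, 30608 in all, 643 of the 970 members stayed 200 to 1000 bp downstream of the nearest start, 301 lay within 200 bp of a start, and 26 lay upstream of one. With all starts, 775 peaks were downstream and 479 upstream.

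The pooled signal of the members had a median of 64.2 with quartiles of 41.3 and 149. Upstream peaks had a median of 72.7 and core peaks 67.6. Of the members, 452 were at 30 to 60, 192 at 60 to 100, 145 at 100 to 200 and 181 at 200 to 400, so most were in the lower part of the range. Signal and distance were nearly unrelated within the range of the rule (Spearman's rho -0.09 over 970 peaks, which share 1 pooled data set). Just inside the signal limits lay Sumo2 at 30.07, Dnal4 at 30.09, Haus4 at 398 and Thnsl1 at 399. Just outside lay Bicra at 29.96, Sod1 at 29.999, Vps53 at 401.7 and Tmx4 at 401.8. Snx27 and Imp3 lay at 200 bp and Snx13 and Stat5a at 997 and 999 bp, with Camk2n1 and Pcf11 just outside at 199 bp and Mettl5 and Ech1 at 1001 and 1003 bp.

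Nearly all members overlapped a peak in each replicate. The optimal set was selected by recurrence between replicates, so that choice bears on this overlap and on the correlation below. In replicate 1 the overlapping peak had a median signal of 37.3 (quartiles 23.3 and 85.2, 969 members), and in replicate 2 a median of 29.2 (quartiles 18.6 and 68.6, 968 members), a mean of 33.2 ± 5.75 (SD, n = 2). Upstream peaks had medians of 41.6 and 35.2 in replicates 1 and 2, and core peaks 38.1 and 31.2. Over the 967 members with a peak in both, Spearman's rho between replicates was 0.806, and 833 were within 2-fold of each other. Replicate 1 was higher in 709 members, with a median ratio of 1.22 over replicate 2, against 1.07 over 16894 optimal peaks.

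The 134 members over 2-fold apart between replicates had a median pooled signal of 47.1, against 64.2 over all members, and 10 of them were above 100. The strongest was Strn at 188, with 131 in replicate 1 and 56.6 in replicate 2. Chmp3, a subunit of the ESCRT-III membrane scission machinery, had 62.6 in replicate 1 and 8.40 in replicate 2. Mef2d, a MADS-box transcription factor, had 3.28 in replicate 1 and 26.0 in replicate 2, and Pcna, the sliding clamp of DNA replication, had 3.56 and 25.3. These 4 were named after their values were seen, Strn for its signal and the others as extremes of the ratio. Arf6 and Traf5 had no overlapping peak in replicate 2, and Zfat had none in replicate 1.

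**Figure D2:**
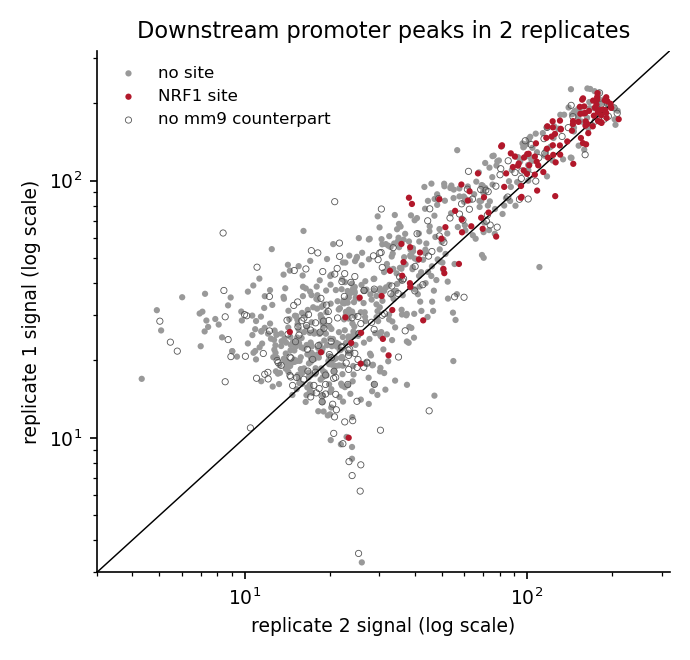
Signal of each downstream member in replicate 1 (vertical) against replicate 2 (horizontal), both on log scales, with the line of equal signal. Members with an NRF1 site (red) gather at the strong end, members without a site are grey, and members with no mm9 counterpart are open circles. The 967 members in both replicates have a Spearman's rho of 0.806.

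Of the 970 members, 939 or 96.8% (Wilson 95% interval 95.5 to 97.7%) also belonged to the conservative set, the stricter of the authors' selections. This was 96.9% of upstream peaks and 97.5% of core peaks, against 78.6% of all optimal peaks. The signal floor of 30 bears on this figure, since the selection ranks peaks by strength. A peak among the 17256 strongest of both replicates overlapped 936 members, or 96.5%, against 70.2% of all optimal peaks. The same floor and the choice by recurrence bear on this share too.

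Where a gene carried several downstream peaks, they differed in strength. Srcap had 3, with pooled signals of 396 at 449 bp, 161 at 648 bp and 48.3 at 926 bp. Those at 449 and 648 bp were summits of 1 called region. Ctbp1, which encodes a transcriptional corepressor, had 303 at 388 bp and 338 at 852 bp, both in the first intron and both with the exact consensus. Those 2 peaks had 156 and 163 in replicate 1 and 144 and 171 in replicate 2, while the Ctbp1 core peak was at 44.4. In the authors' mm9 set the peaks matched to them had signals of 5089 and 1378, the reverse of the mm10 order. Signals of the mm9 set were not used to rank members. Vdac1, the main channel of the outer mitochondrial membrane, had 243 at 201 bp and 148 at 860 bp, and neither held a site. Cfl1, an actin-severing protein, had 211 at 319 bp and 78.8 at 858 bp, both with the exact consensus. In Det1 and Sirt1 both downstream peaks overlapped 1 and the same peak of replicate 2, so those 4 members share their replicate 2 value by pair. These genes were picked for having more than 1 member.

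A second optimal peak at the core of the same TSS was less common for downstream than for upstream peaks. It was present for 242 of 970 downstream peaks, or 24.9% (22.3 to 27.8%), and for 152 of 413 upstream peaks, or 36.8% (32.3 to 41.6%). The odds ratio was 0.571 (95% interval 0.446 to 0.731, two-sided Fisher's exact test, adjusted p = 1.63e-05 over 4 tests). Of all 20364 protein-coding genes, 25.3% had an optimal peak of any signal at the core, close to the downstream share and below the upstream share. Among peaks with no other RefSeq start within 200 bp of the summit, the downstream and upstream shares were 31.1% and 37.6%. Their difference no longer passed (odds ratio 0.747, Fisher's exact test, adjusted p = 0.051). Peaks of neighbouring positions are counted as independent in these tests, and all come from the same 2 libraries.

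The share of members with a core peak was 14.0% at 200 to 299 bp, 21.6% at 300 to 399 bp, 26.0% at 400 to 499 bp, 33.9% at 500 to 599 bp, 34.9% at 600 to 799 bp and 29.7% at 800 to 1000 bp. For upstream peaks the shares over the same distances were 22.3%, 22.7%, 46.9%, 47.5%, 62.2% and 62.2%. Among the 242 downstream pairs, the core peak was the stronger in 113 and the weaker in 129. The core peak was above 400 in 48, between 30 and 400 in 138 and below 30 in 56. Sars, the seryl-tRNA synthetase, had a downstream peak of 338 and a core peak of 498, while Eif4b had a downstream peak of 367 and a core peak of 147.

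For the DNA under the peaks, a member was tied to the mm9 set where a peak of that set lay at the same distance from the same gene start, to within 100 bp. This gave a counterpart to 764 of 970 members, or 78.8%, to 322 of 413 upstream peaks and to 2466 of 2830 core peaks. The start was located on mm9 by the RefSeq promoter sequence for 673 of the 764 and by GENCODE annotation for 91. The median gap in distance was 5 bp. Of the 206 members without a counterpart, 25 had a start that could not be located and 181 had no mm9 peak there. Their median signal was 53.3.

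An NRF1 site lay within 50 bp of the summit in 132 of 764 downstream counterparts, or 17.3% (14.8 to 20.1%). It was found in 54 of 322 upstream counterparts, or 16.8%, and in 213 of 2466 core counterparts, or 8.64% (7.59 to 9.81%). Over all 10979 mm9 peaks the share was 25.4%, and that set also holds peaks above and below the signal range of the rule. The difference from core peaks passed the test (odds ratio 2.21, 95% interval 1.75 to 2.79, two-sided Fisher's exact test, adjusted p = 2.43e-10), and the difference from upstream peaks did not (odds ratio 1.04, interval 0.732 to 1.47, Fisher's exact test, adjusted p = 0.861). The interval leaves room for a difference of either sign from upstream peaks. The exact consensus was in 60 downstream counterparts, or 7.85%, against 6.83% of upstream and 2.80% of core counterparts, and 8.73% of all mm9 peaks.

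Sites were more frequent under stronger peaks in all 3 classes. A site was present in 9 of 339 downstream counterparts at signal 30 to 60, or 2.66%, in 9.74% at 60 to 100, in 21.9% at 100 to 200 and in 83 of 157, or 52.9% (45.1 to 60.5%), at 200 to 400. In the strongest band, 27 of 79 upstream counterparts, or 34.2% (24.7 to 45.1%), and 138 of 465 core counterparts, or 29.7% (25.7 to 34.0%), had one. At signal 100 to 400 the shares were 39.9% of downstream, 29.7% of upstream and 20.6% of core counterparts. In this range the downstream share was above the core share (odds ratio 2.55, Fisher's exact test, adjusted p = 1.55e-09), and its difference from the upstream share missed the threshold (odds ratio 1.57, Fisher's exact test, adjusted p = 0.0505). Members with a site had a median signal of 227, and members without a site 57.1.

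**Figure D3:**
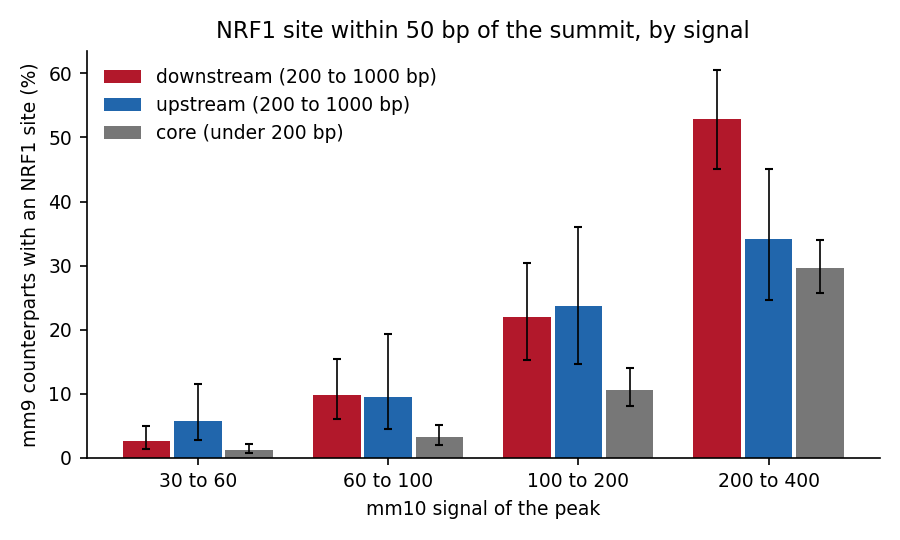
Share of mm9 counterparts with an NRF1 site within 50 bp of the summit, by mm10 signal band, for downstream (red), upstream (blue) and core (grey) peaks. Bars are shares and lines are Wilson 95% intervals. The downstream share climbs with signal to 52.9% at 200 to 400, against 34.2% upstream and 29.7% at the core.

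The 132 members with a site held 140 sites. Of these 11 were perfect and 129 had 1 mismatch, most often in the central pair of bases. Read on the gene strand, A5G was found in 29 sites, T6C in 21, A5C in 15 and T6G in 14. The nearest site lay a median of 11.5 bp from the summit, and in 116 of 132 members it was within 20 bp. The share with a site was 21.4% at 200 to 299 bp inside the gene, 23.5% at 300 to 399 bp, 11.1% at 400 to 499 bp, 12.1% at 500 to 599 bp, 12.3% at 600 to 799 bp and 19.1% at 800 to 1000 bp.

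Downstream counterparts lay mainly in the first intron and the 5′ UTR of annotated transcripts. Of 764, 286 or 37.4% (34.1 to 40.9%) had the summit in a first intron, 212 or 27.7% in a 5′ UTR, 106 or 13.9% in a coding exon, 22 in another exon and 11 in a later intron. The remaining 127, or 16.6%, lay outside GENCODE transcripts of the same strand. Upstream, 92.9% lay outside such transcripts, which the rule for that class nearly fixes. The rule for the downstream class likewise places summits near the 5′ end of the gene, so these features follow largely from it. Where transcripts of the same strand differed, an exon took precedence over an intron. A site was present in 22.0% of first-intron, 16.0% of 5′ UTR and 15.1% of coding-exon members. Dnajb1, a co-chaperone of Hsp70, and Imp3, a component of the small-subunit processome, are 2 members with a site in coding sequence.
Dnajb1: tcagcgacccGCGCAAGCGCgagattttcg
Imp3: agctggcgcgGCGCCTGCGCgacctgccgg
The Dnajb1 site (chr8:86132394-86132423) carried T6A and the Imp3 site (chr9:56785483-56785512) A5C. Dnajb1 had a signal of 90.9 in replicate 1 and 62.6 in replicate 2, and Imp3 had 76.3 in replicate 1 and 55.6 in replicate 2.

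**Figure D4:**
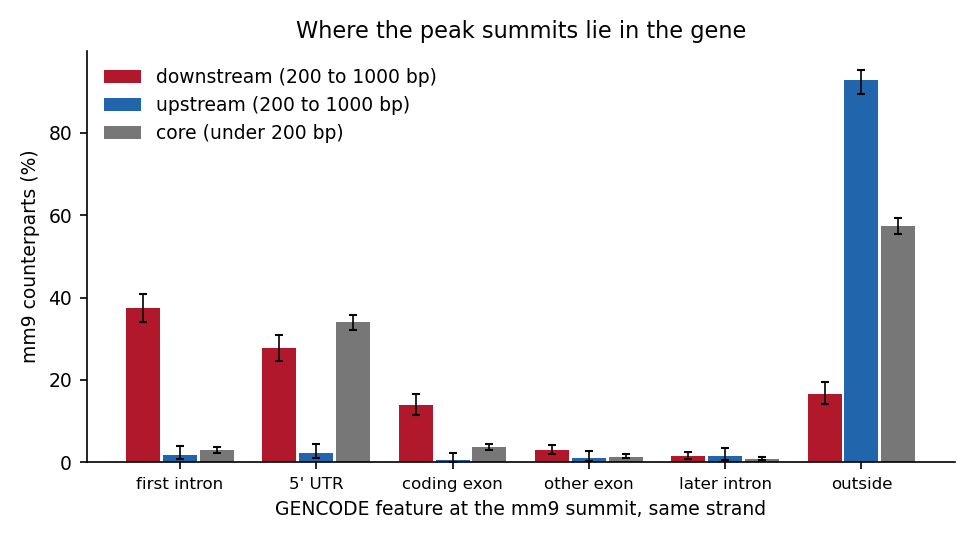
Share of mm9 counterparts by the GENCODE feature at the summit on the gene's strand, for downstream (red), upstream (blue) and core (grey) peaks, with Wilson 95% intervals. First introns (37.4%) and 5′ UTRs (27.7%) hold most downstream summits, and 92.9% of upstream summits lie outside transcripts.

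Many downstream peaks lay at another annotated start. Another GENCODE transcript start was within 200 bp of the summit in 423 of 764 downstream counterparts, or 55.4% (51.8 to 58.9%), and in 53 of 322 upstream counterparts, or 16.5%. The gene's start was set at its 5′ end, so other starts of the same gene can only lie on the downstream side, and no test of this difference is given. On mm10 with RefSeq starts, 310 of 947 members, or 32.7%, lay within 200 bp of another start, and for 285 of them there was a start of the same gene. For upstream peaks the counts were 37 of 409 and 0 of 409. With starts of other genes only, the direction turned, with 38 of 947 downstream, or 4.01%, and 37 of 409 upstream, or 9.05% (odds ratio 0.420, a comparison added after seeing the data). In both classes the rule keeps the 5′ end of any other protein-coding gene used at least 200 bp from the summit. It thus limits which starts of other genes could count, and no test of this difference is given either. Of the core counterparts, 50.4% were near another GENCODE start.

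Members near another start and members away from one had similar signals, with medians of 66.7 and 67.9. The share with a site was 14.7% (62 of 423) near another start and 20.5% (70 of 341) away from one. Psd and Thnsl1 lay 4 and 10 bp from another RefSeq start. Gatad2a and Trim28 lay 21772 and 228 bp from the nearest other one.

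The sequence within 250 bp of the summit was GC-rich, with a median GC content of 65.7% downstream, 60.4% upstream and 64.1% at the core. The median ratio of observed to expected CpG was 0.850 downstream, 0.765 upstream and 0.839 at the core. The words of 4 other promoter factors, ETS, NFY, YY1 and SP/KLF, were less frequent downstream than at the core. The ETS word CCGGAAG was within 50 bp of the summit in 4.97% (3.65 to 6.75%) of downstream, 3.73% of upstream and 13.5% (12.2 to 14.9%) of core counterparts. The NFY word CCAATC was in 5.11%, 4.66% and 10.6% of downstream, upstream and core counterparts, and the YY1 word AAGATGGC in 3.14%, 2.80% and 6.98%. The SP/KLF word GGGCGGGG was in 9.82% downstream, 13.0% upstream and 16.5% at the core. Over all 10979 mm9 peaks, the ETS, NFY, YY1 and SP/KLF words were in 6.98%, 6.09%, 3.88% and 10.1%. The downstream shares lay nearer to these than to the core shares. The CREB word TGACGTCA was in 1.70% and the E2F word TTTCCCGC in 0.65% of downstream counterparts, against 2.35% and 0.73% of core ones. Words were searched on both strands, these shares were not tested, and binding of those factors was not measured.

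The half-site TGCGCA was within 50 bp of the summit in 21.1% of downstream, 20.8% of upstream and 14.2% of core counterparts, and the word GCCTGCGC in 10.6%, 9.01% and 8.88%. Over all 10979 mm9 peaks the half-site was in 27.05% and GCCTGCGC in 11.7%. Both words can overlap the site or each other, and GCCTGCGC was chosen after the sequences had been seen. Among the 163 downstream counterparts at signal 100 to 400 without a site, 46 or 28.2% (21.9 to 35.6%) held the half-site, against 22.7% of upstream and 24.1% of core counterparts of the same kind. GCCTGCGC was held by 17 or 10.4% of the downstream ones, against 9.28% upstream and 11.4% at the core.

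**Figure D5:**
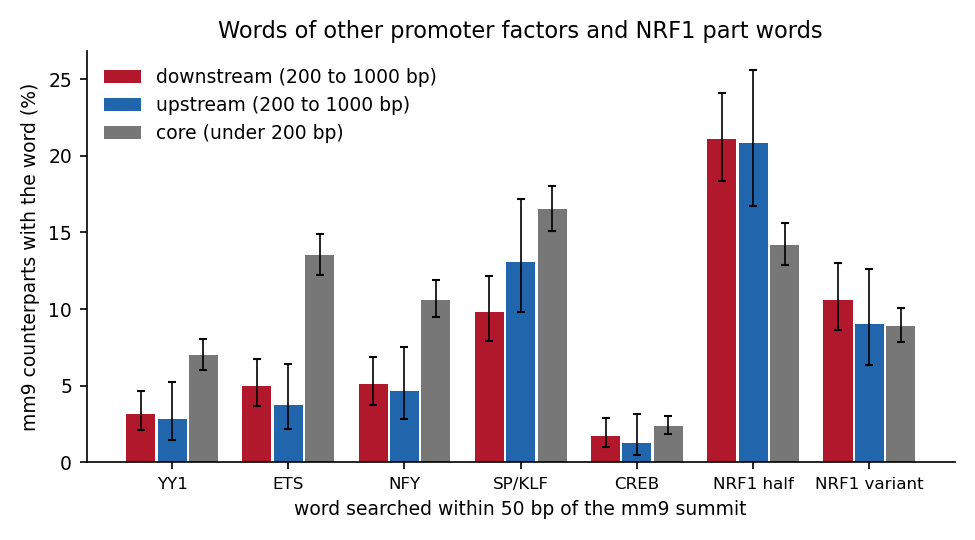
Share of mm9 counterparts with each searched word within 50 bp of the summit, on either strand, for downstream (red), upstream (blue) and core (grey) peaks, with Wilson 95% intervals. ETS words occur in 4.97% of downstream, 3.73% of upstream and 13.5% of core counterparts, and the NRF1 half-site in 21.1%, 20.8% and 14.2%.

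Among genes of oxidative phosphorylation, 3 of 94 had a downstream peak, 3.19% against 4.67% of all protein-coding genes. They were Ndufaf3, an assembly factor of complex I caught by the name pattern, and the subunit genes Ndufb2 and Atp5e. Mitochondrial ribosomal proteins had 3 of 78 (3.85%), Mrpl1, Mrpl20 and Mrps34, and mitochondrial carriers 1 of 43 (2.33%), Slc25a36. Mitochondrial import had 3 of 23 (13.0%), Tomm6, Timm9 and Timm22. Counts of 1 to 3 leave these shares imprecise, and they were not tested. An optimal peak of any signal at the core was present in 53 of 94 oxidative phosphorylation genes and 46 of 78 mitochondrial ribosomal protein genes, 56.4% and 59.0% against 25.3% of all protein-coding genes. Most other gene groups were also above 25.3%. Among them were RNA polymerase and Mediator genes (73.2%), DEAD and DEAH helicases (66.7%) and cytosolic ribosomal proteins (58.3%). Solute carriers other than Slc25 were below it, at 18.2%.

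Aminoacyl-tRNA synthetases, which charge tRNAs with amino acids, had 7 of 34 genes with a downstream peak, 20.6% against 4.67% of all genes. These were Cars2, Fars2, Gars, Nars2, Sars, Vars and Vars2. Sars had 165 in replicate 1 and 170 in replicate 2, Nars2 had 126 and 161, and Cars2 had 145 and 101. Gars had only 29.9 and 24.5 downstream, with a core peak of 542, and Vars2 had 41.6 and 36.6, with a core peak of 629. Translation initiation factors had 5 of 53 (9.43%), Eif1, Eif4b, Eif5, Eif5a and Eif6. Eif5a, which helps peptide bond formation, had 174 in replicate 1 and 188 in replicate 2 at 413 bp. A further summit of the same called region lay at 205 bp, with 99.6 in replicate 1 and 107 in replicate 2. That region covered the gene start, but no summit lay less than 200 bp from it, so no core peak was counted. Groups were not tested for enrichment, and with counts this small each share is imprecise.

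Cytosolic ribosomal proteins had 4 of 72 (5.56%, against 4.67% of all protein-coding genes), Rpl7a, Rps9, Rps20 and Rpl38. Rpl7a had a site in its first intron, where replicate 1 gave 137 and replicate 2 gave 131.
Rpl7a: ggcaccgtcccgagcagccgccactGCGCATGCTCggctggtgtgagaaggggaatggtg
The Rpl7a site (chr2:26766715-26766774) carried G9T. RNA polymerase and Mediator genes had 3 of 56 (5.36%). Polr3b, the second-largest subunit of RNA polymerase III, had 176 in replicate 1 and 152 in replicate 2. Splicing factors had 6 of 58 (10.3%), led by Srsf10 with 161 in replicate 1 and 147 in replicate 2. DEAD and DEAH helicases had 1 of 51 (1.96%), Dhx30, at 164 and 161 in replicates 1 and 2.

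The largest group by number was the zinc finger Zfp genes, with 24 of 387, or 6.20%, against 4.67% of all protein-coding genes. It was also the group with the most genes. Zfp667 had 207 in replicate 1 and 177 in replicate 2 and a site, and Zfp383, without one, had 189 and 153. Solute carriers other than Slc25 had 19 of 319 (5.96%), led by Slc66a2 with 220 and 181. Tmem genes had 14 of 229 (6.11%), led by Tmem237 with 170 and 146. Ubiquitin conjugating enzymes and Usp proteases had 6 of 70 (8.57%) and were led by Ube2l6 with 36.9 and 23.5. The DnaJ and chaperonin genes had 3 of 54 (5.56%), led by Dnajb1, and the proteasome group 2 of 50 (4.0%), Psma7 and the assembly chaperone Psmg3. Kinesins had 1 of 37 (2.70%), Kif13b with 90.7 and 72.9, and replication factors 1 of 37 (2.70%), Rfc5 with 19.9 and 19.8. Nucleoporins had 0 of 20. The pattern for histone genes matched only 4 genes, since the gene table names histones otherwise, and gives no result.

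Among the B cell genes, downstream peaks at Ebf1 and Spib were weak. Ebf1, a transcription factor that sets B cell identity, had 14.6 in replicate 1 and 18.9 in replicate 2 at 361 bp, and Spib, an ETS factor of B cells, had 20.3 and 13.8. Cd79a, Cd79b and Pax5 had no optimal peak within 1000 bp of their start. Of the 24 B cell genes, 8 or 33.3% had an optimal peak of any signal at the core, against 25.3% of all protein-coding genes. The group was not tested. Binding data hold no measure of expression, so the cell type was not checked by its markers.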

How the data were processed

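The members, the gene groups and the words were chosen with earlier results of these data known. Per the deposited notes, the authors called relaxed peak lists on mm10 for each replicate and the pool, each with a control, and selected the optimal and conservative sets by irreproducible discovery rate. No source used here names the aligner or caller. Each deposited list gives a signal per peak and a score column. The signal was used, and the score entered no test. A replicate's value is that of its relaxed peak overlapping by at least 1 bp with the nearest summit.

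Starts were 5′ ends of RefSeq genes (GRCm38.p6), with strand from the RefSeq promoter table for 16457 genes, and from GENCODE vM1 by symbol for 3538 and by synonym for 369. Without a strand, 301 were left out. The promoter table held no gene of chromosome 18, so distances to other RefSeq starts leave out its 23 members. The genome was NCBIM37 (mm9), and no coordinate was converted. The plan assumed this. Starts were found on mm9 by exact match of the 300-base RefSeq promoter. Fisher's exact test, two-sided, compared the shares, with p-values adjusted by Benjamini-Hochberg over 4 tests (scipy 1.17.1, numpy 2.4.6, pandas 2.3.3, Python 3.11.15), checked on simulated data. The 4 include the share near another annotated start, downstream against upstream. Its p-value is not given because the placement of starts sets the difference. It stayed in the adjustment, so the other adjusted p-values depend on it. Intervals are Wilson 95% intervals and cover counting error only. Genes named are the 10 strongest members, the 8 strongest with the exact consensus, the strongest of each group, those at the limits, and others said to be chosen later. The result of 1 named gene is not reported here. Alternatives were other distance and signal limits, starts, windows, the conservative set and single replicates.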

Additional observations from a re-analysis of the deposited data

How the results depend on the processing

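The number of downstream peaks was 579 at 200 to 500 bp and 518 at signal 60 to 400, and lay between 713 and 944 under the other limits and starts tried. It was 959 and 1006 when replicate 1 or replicate 2 was left out, by peaks of the same ranks in the remaining one. At signal 60 to 400, 99.8% of members were in the conservative set. The median signal was 29.2 without replicate 1 and 37.3 without replicate 2. The odds ratio of a second peak at the core, downstream over upstream, was 0.747 (Fisher's exact test, adjusted p = 0.051) with no other RefSeq start within 200 bp, an alternative chosen after seeing the data. It was 0.561 with the conservative set for the second peak and 0.623 at signal 60 to 400. For an NRF1 site, downstream over upstream, it was reversed at signal 30 to 100 (0.673) and, in an alternative chosen after seeing the data, with starts located by sequence only (0.982), and neither these nor any other alternative run passed the threshold. The odds ratio of another start within 200 bp, downstream over upstream, was 6.30 and is set by placing each gene's start at its 5′ end. With RefSeq starts of other genes only, chosen after seeing the data, it was reversed (0.420), and the rule limits which of these starts could count. The cause of the other shifts was not tested. Site share against core peaks passed in all 7 alternatives, with odds ratios of 2.16 to 2.96. No paired analysis was possible because the design has 1 group. Depth is unknown, so weak peaks cannot be given a counting error, and the members without an mm9 counterpart have no sequence result.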
